A study of Homo sapiens with 9 samples.

Results

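BCR-ABL1 is the fusion kinase of chronic myeloid leukaemia, and the 10 genes described here encode proteins that carry its signal: the transcription factors STAT5A and STAT5B, the kinase JAK2, the adaptors CRKL, GRB2, GAB2 and SHC1, the RAS exchange factor SOS1, the ubiquitin ligase CBL and the PI3-kinase regulatory subunit PIK3R1. They were chosen by name, and their members in the data were the SF3B1 binding sites whose centre lay in the RefSeq span of one of these genes (GRCh38) on the strand of that gene. There were 182 such sites among 96852 in all, which was 0.188% of the list.

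The sites came from iCLIP. Ultraviolet light joins proteins to the RNA they touch in living cells, an antibody pulls down the protein of interest, and the cDNA ends of the recovered RNA fragments show where it was attached. SF3B1 was precipitated from K562 cells with unmutated SF3B1 (SF3B1 wt/wt, 3 samples, Horizon Discovery), and 1 merged list of positions 5 nt wide is attached to these samples. The series also holds 2 SF3B1 samples from SF3B1 K700E/wt cells and 4 U2AF2 samples from SF3B1 wt/wt cells of another provider (ATCC), which had no table and were not analysed here. All samples were crosslinked with ultraviolet light. The header of the list speaks of replicates of either condition, so no site is assigned to a genotype. The list gives neither reads nor values per replicate. Depth and spread between samples are therefore unknown, and the orders and differences below are descriptions of 1 list without a test.

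K562 is an established leukaemia line that carries BCR-ABL1. The labels call its tissue lymphoid, although K562 is known as a chronic myeloid leukaemia line. Of 12 erythroid markers, 7 contained a site, from 3 in EPOR to 121 in TFRC, while those with 0 included KLF1, HBE1, HBG1 and HBG2. None of 8 B lymphoid and 6 T lymphoid markers contained a site. Over all protein-coding genes, 37.9% contained a site, and no cell identity is read from these marker counts. A site needs enough RNA to be found in all replicates, so 0 sites cannot be told from low expression.

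In BCR-ABL1 positive cells, phosphorylated tyrosines on the fusion protein recruit GRB2, which brings GAB2 and SOS1, and SHC1 and CRKL are further docking proteins. SOS1 loads RAS with GTP, PIK3R1 holds the catalytic PI3-kinase subunit at phosphotyrosines, and STAT5A and STAT5B move to the nucleus after phosphorylation. SF3B1 is the largest protein of the SF3B complex in the U2 small nuclear ribonucleoprotein, which recognises the branch point upstream of a 3′ splice site. Its crosslinks can mark RNA touched during splicing, which was not tested for these sites. Exon positions and the sequence at the sites were not used here. Windows around RefSeq transcription starts (250 bases before to 50 after) covered 9 of the 10 genes with 20 windows, and CBL had none. A site lay in 0 of these 20 windows, against 177 of 22199 windows of protein-coding genes (0.797%).

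All 10 genes contained at least 1 site, against 7608 of 20056 protein-coding genes (37.9%). Of those 20056 genes, 2991 had no strand and so could not count. The 10 genes were chosen with earlier results known, and CBL took its strand from its sites. No enrichment is therefore read from these shares. At least 5 sites were present in 7 of the 10 genes (23.1% of protein-coding genes), at least 10 in 5 genes (14.8%) and at least 20 in 4 genes (7.2%). STAT5B had 45 sites, STAT5A and JAK2 39 each, SOS1 25, SHC1 12, CRKL and GAB2 7 each, GRB2 and CBL 3 each, and PIK3R1 2. STAT5A, STAT5B and JAK2 thus held 123 of the 182 sites, and the genes with the fewest sites were GRB2, CBL and PIK3R1. The median was 9.5 sites per gene in the 10 genes and 7 in all protein-coding genes with a site. The amount of each RNA and the copy number of each gene in K562 were not measured, and their part in these counts was not tested.

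**Figure D1:**
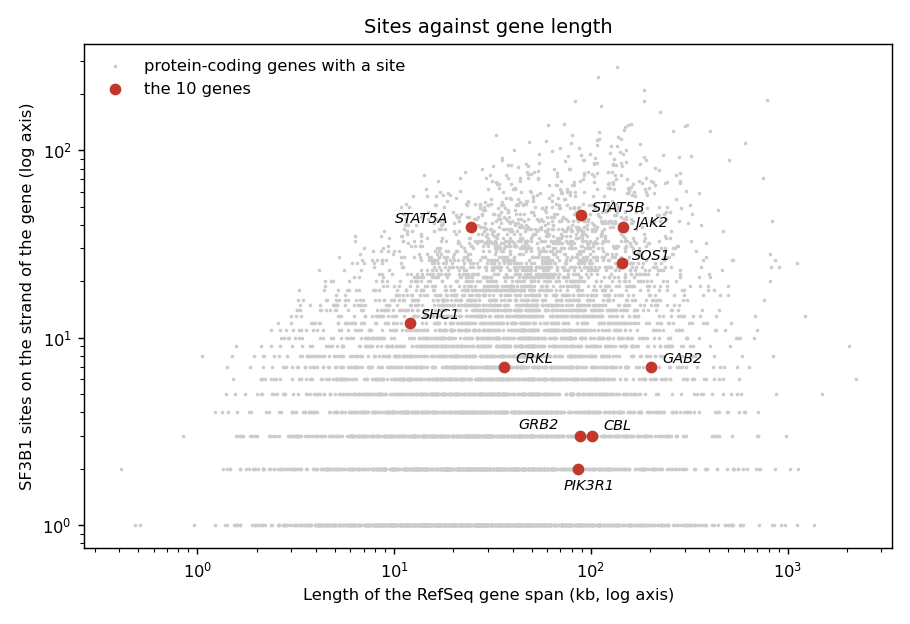
SF3B1 sites on the strand of the gene (y axis, log) against the length of the RefSeq gene span in kb (x axis, log). Grey points are the 7608 protein-coding genes with a site and red points the 10 genes; PIK3R1, GRB2 and CBL lie at 2 or 3 sites although their spans are 86.1 to 101.8 kb, while STAT5A has 39 sites in 24.5 kb.

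Per length of the span, the order changed. STAT5A had the most sites per kb, 1.59, followed by SHC1 with 0.993, STAT5B with 0.505, JAK2 with 0.268, CRKL with 0.193 and SOS1 with 0.174. GAB2 and GRB2 had 0.035 and 0.034 sites per kb, CBL 0.029 and PIK3R1 0.023. The median over the 10 genes was 0.184 sites per kb, beside 0.199 over all protein-coding genes with a site, whose quartiles were 0.0706 and 0.510. The 10 genes as a group therefore lay near the middle of the genes with sites, with STAT5A and SHC1 above the upper quartile and GAB2, GRB2, CBL and PIK3R1 below the lower one.

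Protein-coding genes were divided into 10 equal classes of length, and each gene was ranked by its number of sites among the genes with a site in its own class. STAT5A stood at the 95.0th percentile of 962 genes and STAT5B at the 91.1st of 1055. JAK2 and SOS1, in the same class as STAT5B, stood at the 87.5th and 75.7th percentile. In that class the median gene with a site had 10 sites, and GRB2 and CBL stood at the 19.8th percentile and PIK3R1 at the 12.8th. SHC1 stood at the 77.3rd percentile, GAB2 at the 46.2nd and CRKL at the 45.3rd.

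**Figure D2:**
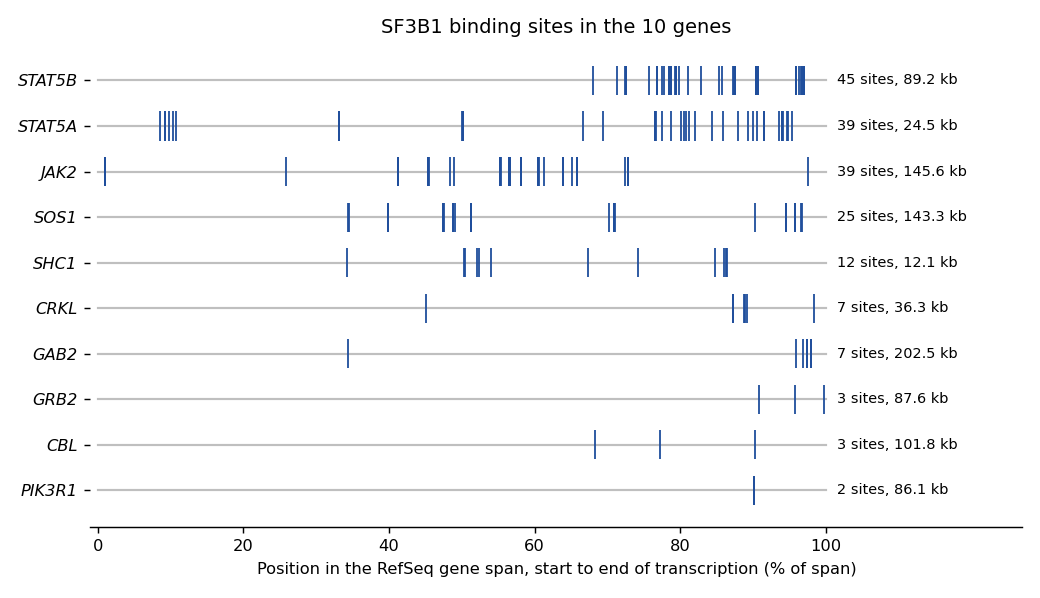
Positions of the SF3B1 sites (blue ticks) along the RefSeq span of each gene, from the start to the end of transcription, in % of the span; the number of sites and the span length in kb stand on the right. STAT5B has no site before 68.0% of its span, STAT5A has 6 sites near its start, and the sites of GRB2 and PIK3R1 lie in the last 10%.

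STAT5A and STAT5B are closely related transcription factors encoded side by side on chromosome 17, and their sites were arranged differently. STAT5A (gene ID 6776, plus strand, chr17:42287439-42311943) and STAT5B (gene ID 6777, minus strand, chr17:42199177-42288370) share 932 nt at their starts. No site lay in that shared stretch, and neither span held a site on the strand opposite to its gene, which was also true of the other 8 spans. STAT5A began with 6 sites between 42289538 and 42290092, 2.10 kb after the start of the span. Then came 2 sites at 42295570 and 42295577 and 3 between 42299698 and 42299737. The remaining 28 sites filled 7.03 kb from 42303768 to 42310798, beginning at 66.6% of the span, and 12 of the 39 sites lay in the last 10%.

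STAT5B had no site in the first 60.7 kb of its span and none in the 48.7 kb after the RefSeq start at 42276391. Transcribed towards lower coordinates, it then had 35 sites in 20.2 kb, from 42227699 down to 42207474, and 10 sites in 979 nt, from 42202855 down to 42201876. The densest 1 kb of each gene held 10 sites, 42309860 to 42310798 in STAT5A and 42201876 to 42202855 in STAT5B, near the end of both genes. They were 2 of the 7 genes with at least 5 sites that reached 10 sites in 1 kb, against 11.2% of such protein-coding genes. Those protein-coding genes were not matched for the number of sites, which was 39 in STAT5A and 45 in STAT5B. The last site lay 1.15 kb before the end of the span in STAT5A and 2699 nt in STAT5B, against a median of 3.04 kb over protein-coding genes with at least 5 sites. Reads from stretches that are alike in both genes can be placed in either, so their separate counts are uncertain where the sequences match.

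STAT3, another STAT gene, lies 1381 nt beyond the end of STAT5A, and the 3 genes held 109 sites together. STAT3 had 25 sites, STAT2 21 and STAT6 9, while STAT4 had 0. STAT5A and STAT5B therefore had more sites than these 4 STAT genes. Per kb, STAT2 (1.13) and STAT6 (0.564) were both below STAT5A (1.59) and above STAT5B (0.505). STAT3 (0.333) was below STAT5A and STAT5B.

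**Figure D3:**
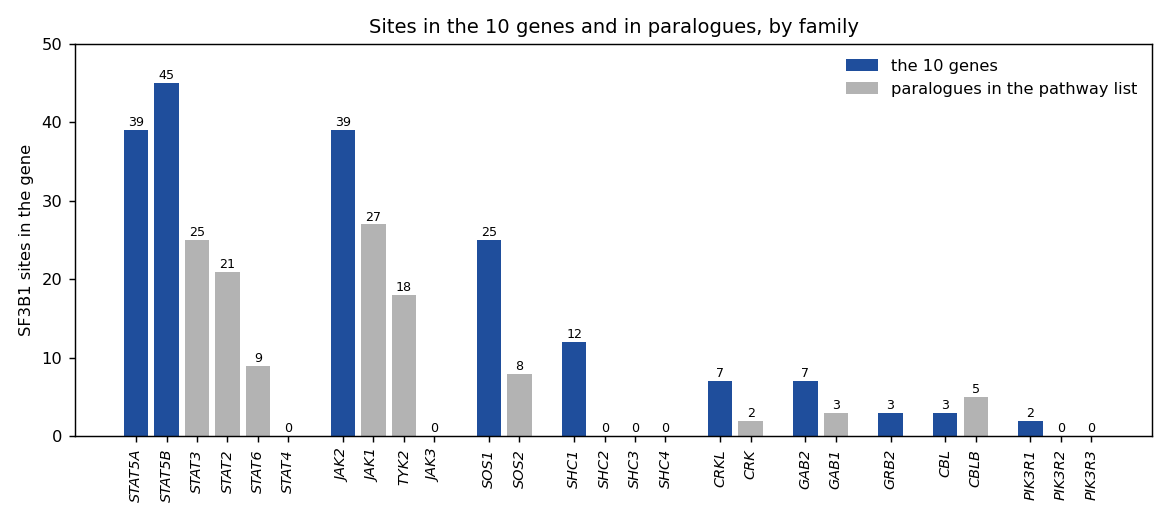
Number of SF3B1 sites (bars, y axis) in the 10 genes (blue) and in paralogues from the fixed pathway list (grey), grouped by family. In the JAK, SOS, SHC, CRK and GAB families the gene among the 10 has the most sites, from 7 in CRKL and GAB2 to 39 in JAK2; CBL has 3 and CBLB 5.

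JAK2 (gene ID 3717, plus strand, chr9:4984390-5129948) is the cytokine receptor kinase upstream of STAT5. Its 39 sites spread over 96.5% of the span, but unevenly. A group of 3 sites, at 4985891, 4985904 and 4985935, lay 1501 nt after the first start and 0.619 kb after the RefSeq start at 4985272. A single site followed at 5021951. Next, 34 sites lay within 46.1 kb, between 5044352 and 5090433, and the last lay alone at 5126288. The stretch without a site between the first group and 5021951 was 36.0 kb long, longer than the longest stretch in 90.2% of genes with at least 5 sites. Those genes were not matched for length. JAK2 spans 145.6 kb, beside a median span of 36.1 kb over all protein-coding genes with a site. Of the 39 sites, 36 also fell in the span of INSL6, a gene on the minus strand, and no site in the JAK2 span lay on that strand. JAK1 had 27 sites, TYK2 18 and JAK3, which is used in lymphoid cytokine receptors, 0. Per kb, TYK2 had 0.599 sites, JAK2 0.268 and JAK1 0.115.

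The adaptors differed widely. SHC1 (gene ID 6464, minus strand, chr1:154962298-154974376) had 12 sites in the shortest span, 12.1 kb. All lay between 154970246 and 154963944, downstream of both RefSeq starts, and the first was 501 nt after the inner start at 154970747. No site lay in the last 10% of SHC1. The other SHC genes, SHC2, SHC3 and SHC4, had 0 sites each.

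CRKL (gene ID 1399, plus strand, chr22:20917407-20953747), the adaptor that is a prominent substrate of BCR-ABL1, had 7 sites. The first was at 20933775, 16.4 kb after the start, and 15.4 kb followed without a site. The next were at 20949133, 20949139, 20949665, 20949698 and 20949789, and the last was at 20953146, 601 nt before the end of the gene. Its relative CRK had 2 sites.

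GRB2 (gene ID 2885, minus strand, chr17:75318076-75405678) links phosphotyrosines to SOS1. Its 3 sites were at 75326067, 75321843 and 75318339 in the direction of transcription. The first 79.6 kb of its 87.6 kb span had no site, and the last site was 263 nt before the end.

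GAB2 (gene ID 9846, minus strand, chr11:78215293-78417820) is the scaffold that GRB2 brings to BCR-ABL1, and the longest gene of the 10. Its first site, at 78348160, lay 69.7 kb into the span and before the inner RefSeq start at 78341919. After 124.5 kb without a site, the other 6 lay within 4.26 kb, at 78223697, 78221643, 78220492, 78220460, 78219478 and 78219438. The stretch without a site was longer than the longest one in 98.6% of genes with at least 5 sites. Those genes were not matched for length, and GAB2 spans 202.5 kb. These 6 sites also fell in the span of USP35, a gene on the plus strand. The related GAB1 had 3 sites.

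SOS1 (gene ID 6654, minus strand, chr2:38981549-39124868), which activates RAS, had 25 sites in 3 groups. In the direction of transcription, 13 sites lay in 24.2 kb between 39075521 and 39051302, 5 in 1.24 kb between 39024185 and 39022946, and 7 in 9.08 kb between 38995403 and 38986327. The first 49.3 kb of the span had no site, and the longest gap between neighbours was 27.5 kb. Of the 25 sites, 14 had another site 25 to 45 nt away. SOS2 had 8 sites, 0.070 per kb, against 0.174 per kb in SOS1.

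CBL (gene ID 867, chr11:119206339-119308149), a ubiquitin ligase that acts on activated tyrosine kinases, had 3 sites on the plus strand, at 119275942, 119284955 and 119298308. They stood far apart, 9.84 kb or more from the end of the span, and the strand of CBL was taken from them. CBLB had 5 sites. PIK3R1 (gene ID 5295, plus strand, chr5:68215756-68301821) had 2 sites, at 68293286 and 68293294. They lay 8 nt apart, 709 nt after the innermost of 4 RefSeq starts, at 68292577, and 77.5 kb after the first. PIK3R2 and PIK3R3, which encode other regulatory subunits, had 0 sites.

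Sites of the 10 genes lay mostly in the last 50% of the gene, as did sites of the other pathway genes and of all protein-coding genes. The last 50% of the span held 149 of 182 sites, 81.9% (95% Wilson interval 75.6% to 86.8%), beside 63.4% over all protein-coding genes with a site. The last 10% held 49 sites, 26.9% (21.0% to 33.8%), beside 13.5%, and the first 10% held 7 sites, 3.85%, beside 4.63%. In the 42 other pathway genes with a site, the last 50% held 525 of 700 sites and the last 10% held 124, or 17.7%. The intervals cover counting only, and since sites of a gene are not independent, they are too narrow. JAK2 had only 1 of its 39 sites in the last 10%, and SHC1 0 of 12. STAT5B supplied 16 of the 49 sites, STAT5A 12, SOS1 7, GAB2 6, GRB2 3 and PIK3R1 2. With each gene left out in turn, the share in the last 50% stayed between 75.9% (without STAT5B) and 85.4% (without SOS1). Of the 7 genes with at least 5 sites, 1, STAT5B, had no site in the first 50% of its span, against 19.6% of such protein-coding genes.

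**Figure D4:**
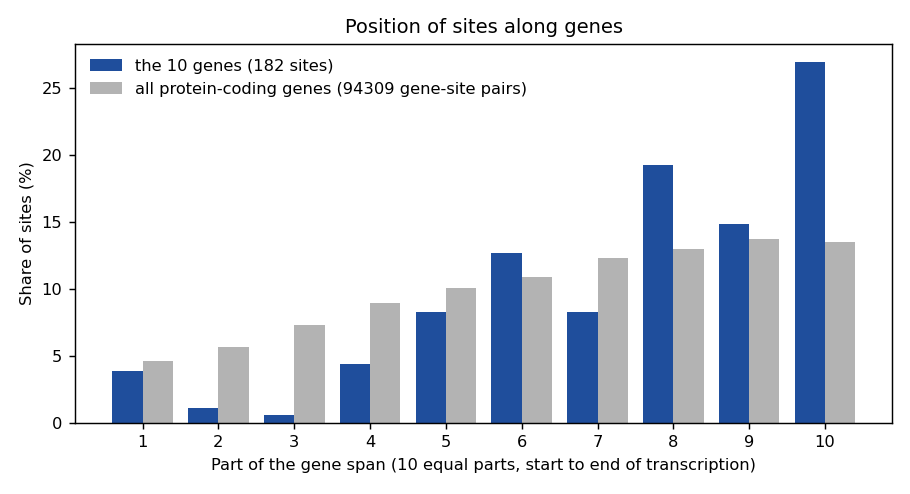
Share of sites (y axis, %) in 10 equal parts of the gene span from the start to the end of transcription (x axis), for the 182 sites of the 10 genes (blue) and for all protein-coding genes (grey, a site in overlapping genes counted in each). The blue bar of the last part reaches 26.9% and the grey one 13.5%. In the parts numbered 2 and 3 the 10 genes have 1.10% and 0.549%. The sets of genes were not matched for length.

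The median distance between neighbours was 154 nt in the 10 genes (172 distances) and 157 nt in all protein-coding genes. Of these distances 5, 2.91%, were 5 nt, which means that the sites touched, beside 4.10% over all protein-coding genes, and 28, 16.3%, were at most 12 nt, beside 17.2%. Pairs of sites 25 to 45 nt apart numbered 46, and pairs 46 to 66 nt apart numbered 8, a ratio of 5.75 beside 3.59 over all protein-coding genes. Both spans were taken from an earlier description of this list. A partner 25 to 45 nt away was present for 75 of 182 sites, 41.2% (95% Wilson interval 34.3% to 48.5%), beside 36.5%, which lies inside that interval. There were 19 pairs 140 to 180 nt apart and 14 pairs 60 to 100 nt apart, a ratio of 1.36 beside 1.72 over all protein-coding genes.

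**Figure D5:**
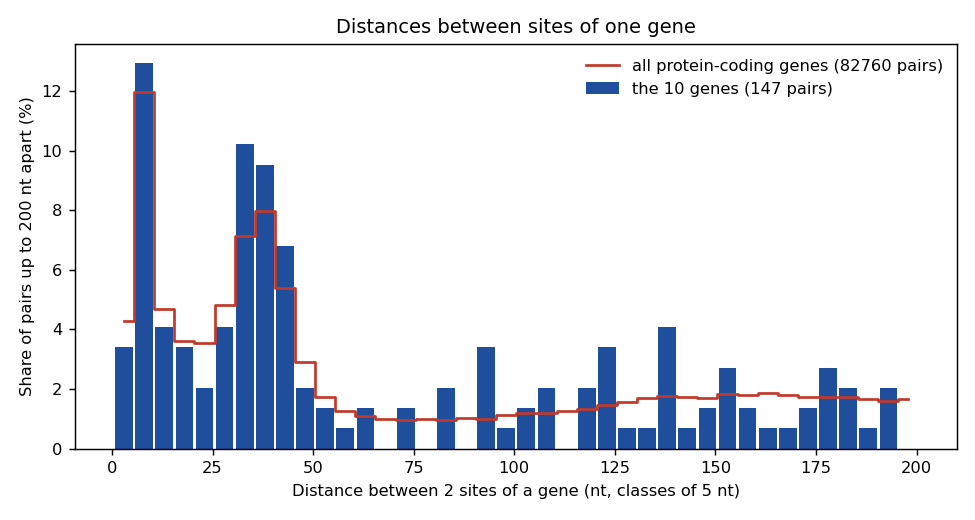
Share of pairs of sites (y axis, % of pairs up to 200 nt apart) by the distance between the sites in classes of 5 nt (x axis), for 147 pairs in the 10 genes (blue bars) and 82760 pairs in all protein-coding genes (red line). Both show high shares at 6 to 10 nt and again between 31 and 40 nt.

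The pairs were described as footprints with an upstream and a downstream element, a name for their spacing only. Sites were joined into clusters across gaps of up to 60 nt and, inside a cluster, into elements across gaps of up to 12 nt. A cluster of 2 elements counted as a footprint if the mean positions of the elements differed by 25 to 45 nt. The 10 genes had 24 such footprints, made of 61 sites, with distances from 27.0 to 44.0 nt and a median of 35.0 nt. SOS1 had 6, STAT5B and JAK2 5 each, STAT5A 3, GAB2 and SHC1 2 each, and CRKL 1. All 7 genes with at least 5 sites thus had a footprint, against 80.5% of such protein-coding genes, which were not matched for the number of sites. With only 7 genes, this difference is not read as a trait of them. GRB2, CBL and PIK3R1 had no footprint. The most sites in a footprint were 4, found in JAK2 and STAT5B. The one in JAK2 lay between 5068956 and 5069007, with 2 sites in each element, 42.5 nt apart. The one in STAT5B lay between 42201876 and 42201913, with 1 site upstream and 3 downstream, 28.7 nt apart. Footprints of SOS1 followed each other at 39075521 to 39075483, 39067801 to 39067764, 39056917 to 39056878 and 39054888 to 39054844, and were 37.0 to 44.0 nt wide between their elements. The upstream elements of all footprints held 28 sites and the downstream elements 33. The upstream elements held fewer sites in STAT5B (5 against 9) and STAT5A (3 against 5) and more in SOS1 (8 against 6).

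The other genes of the pathway were taken from a list of 60 genes that act with BCR-ABL1, RAS, PI3-kinase, JAK and STAT5. Of these, 42 contained a site, 31 at least 5 and 13 at least 20. Over all protein-coding genes, the shares at these limits were 37.9%, 23.1% and 7.2%. The list was chosen with earlier results known, so no enrichment is read from these counts. Together, the 42 genes held 700 sites. Among those with the most sites were NF1, which turns RAS off, with 69 and PIK3CB, a catalytic PI3-kinase subunit, with 67. JAK1 and PIM1, a kinase gene induced by STAT5, had 27 each, and ABL1, BRAF and STAT3 had 25 each. PIM1 reached 5.12 sites per kb in a span of 5.28 kb, more per kb than any of the 10 genes. BCR had 24 sites and ABL1 25, 0.175 and 0.143 per kb, beside 0.174 in SOS1 and 0.193 in CRKL. Of the RAS genes, NRAS had 4 sites and HRAS 0.

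Among feedback and survival genes that STAT5 is known to induce, MCL1 had 17 sites, SOCS2 16, BCL2L1 7 and CISH 6, while SOCS1 and SOCS3 had 0. In the PI3-kinase branch AKT2 had 22 sites, PIK3CA 15, PIK3CD 2 and AKT1 1. The 18 list genes without a site included DOK1, DOK2, FES, FOXO1, HRAS, INPP5D, JAK3, PIK3R2, PIK3R3, RIN1, SHC2, SHC3, SHC4, SOCS1, SOCS3 and STAT4. The median of the 42 list genes with a site was 13 sites and 0.158 sites per kb, beside 9.5 sites and 0.184 per kb in the 10 genes.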

How the data were processed

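The deposited table is a list of SF3B1 iCLIP sites from K562 cells. Per the file headers, the 5 nt sites were merged, and kept if every replicate of either condition held them. The deposited score is 0 in every row, so no threshold could be set, and the site caller is not given in the sources used here. The submitters' processing notes name STAR 2.7.3a and 2.6.1b, UMI-tools 1.0.0, bedtools 2.27.1, FastQC 0.11.8 and the builds GRCh38.p10 and GRCh38.p12, without saying which was used where. These rules can remove sites in rare RNA and set a smallest distance between sites.

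Gene spans came from RefSeq (GRCh38.p14), whose chromosome coordinates those patches share. Positions are 1-based and a site stands at its centre. Strand came from RefSeq starts, or, where these were missing (CBL and 1221 other protein-coding genes), from the strand with more sites. A site in overlapping genes counted in each. The 10 genes, the pathway list, the spans and the measures were chosen with earlier results of these data known. The text names all 10 genes and, from the list, their paralogues, the genes with the most sites (8, and 9 with ties) and those with 0, except some that are not reported here. BCR and the pathway groups were named after their values were seen. Shares have 95% Wilson intervals. With 1 merged list, no test between samples was possible, and the planned measure of distance to 3′ splice sites was not made because exons were not used. Counting was tested on simulated sites in 2000 genes, and all 2000 counts and footprint numbers were equal to those placed. Elements of several sites, clusters of more than 2 elements and sites shared by overlapping genes were not simulated. Alternatives covered strand, merging, overlap and minimum counts. Scripts ran in Python 3.11.15 with matplotlib 3.10.9, SciPy 1.17.1, pandas 2.3.3 and NumPy 2.4.6.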

Additional observations from a re-analysis of the deposited data

How the results depend on the processing

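Of 43 recalculations of 7 results, 41 stayed within 1.5 times the reported count or median, or within the Wilson interval of the reported share. The other 2 concern the share of sites in the last 10% of the gene (26.9%), which was 43.0% as a mean over genes, since GRB2 and PIK3R1 with few sites stand at 100%, and 41.8% in the last 20%, a longer stretch. The 182 sites were 140 without those that also lie in another gene. That leaves JAK2 with 3 sites of 39 and GAB2 with 1 of 7, and moves no other of the 10 genes. Merging sites that touch gave 177, and 1 site per running number of the list gave 172. The recalculations that left out 1 gene at a time were chosen after seeing the data. Not run were the alternatives on 3′ splice sites and on score, and the omission of single replicates, which are not separate in the list. No paired analysis was possible because values per replicate were not given. The depth behind a site is unknown.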

Other observations

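Each site carries a running number, and the numbers are not complete. In the stretches of the list that the 10 genes occupy, 8 of 180 numbers were skipped (4.44%), against 7.65% in the whole list. STAT5A and SOS1 each had 2 skipped numbers, and STAT5B, JAK2, GRB2 and CBL 1 each.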
